A study of Mus musculus with 2 samples.

Results

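The cathepsins described here are 10 mouse genes, Ctsb, Ctsc, Ctsd, Ctse, Ctsf, Ctsh, Ctsk, Ctsl, Ctss and Ctsz. They were chosen by gene symbol, and all 10 had a probe set on the array, out of 18193 genes with one. Together they were read by 22 of the 45037 probe sets used. RNA came from whole lungs of C57BL/6 mice, aged 6 to 8 weeks when 500000 Lewis lung carcinoma (LLC) cells in 200 µL were injected into a tail vein, and lungs were taken on day 19. LLC is a transplantable mouse lung carcinoma line of C57BL origin. In 1 group the cells carried an empty vector, and in the other they overexpressed TDAG8, the proton-sensing receptor encoded by Gpr65. Both groups therefore bore LLC cells, and no lung without tumour cells was measured. For each group the RNA of 10 lungs was pooled and run on 1 Affymetrix array, so there are 2 arrays, no spread between mice and no test. The labels do not say whether the transfected cells were a single clone or which promoter drove TDAG8.

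Cathepsins are proteases of the lysosome, made as inactive precursors that are sorted by mannose 6-phosphate and become active at acidic pH. Most of the 10 are cysteine proteases of the papain family, while Ctsd and Ctse encode aspartic proteases. In the lung, macrophages use them to digest what they engulf and to cut the invariant chain of class II molecules, and type 2 epithelial cells use Ctsh in the maturation of surfactant proteins B and C. Cathepsins secreted in tumours can degrade matrix. For the description the genes were put into a phagocyte group (Ctsb, Ctsc, Ctsd, Ctsk, Ctsl, Ctss and Ctsz) and an epithelial group (Ctse and Ctsh) by such background knowledge. Ctsf, which is broadly expressed, was left outside both. Most of these genes are active in several cell types, so the groups are a rough guide.

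RefSeq promoter windows on build GRCm38.p6, reaching 250 bases before and 50 after the transcript start, were at hand for 7 of the 10 genes. They are shown because the members differ in 2 short motifs, CACGTG, an E-box that the lysosomal regulators of the MiT/TFE family can bind, and GAGGAAG, which contains the purine-rich core bound by the myeloid factor PU.1. CACGTG, which reads the same on both strands, was found in 3 of the 7 windows, those of Ctsd, Ctsl and Ctsf, against 7.15% of all 32851 windows of this length. The 250 bases before the annotated start of these genes follow, 5′ to 3′ along the gene, with CACGTG in capitals. The stretch of Ctsl ends in a run rich in t and c followed by acag, the form of an intron end. Whether its annotated start is a true transcript start was not checked, so its match may not lie in a promoter. Ctsl lies at chr13:64370521-64370770 on the minus strand, Ctsd at chr7:142387828-142388077 on the minus strand and Ctsf at chr19:4854915-4855164 on the plus strand.
Ctsl: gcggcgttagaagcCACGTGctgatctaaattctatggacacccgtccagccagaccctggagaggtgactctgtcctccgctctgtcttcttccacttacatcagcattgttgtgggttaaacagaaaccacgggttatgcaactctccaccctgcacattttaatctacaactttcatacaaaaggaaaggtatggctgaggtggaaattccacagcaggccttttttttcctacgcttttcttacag
Ctsd: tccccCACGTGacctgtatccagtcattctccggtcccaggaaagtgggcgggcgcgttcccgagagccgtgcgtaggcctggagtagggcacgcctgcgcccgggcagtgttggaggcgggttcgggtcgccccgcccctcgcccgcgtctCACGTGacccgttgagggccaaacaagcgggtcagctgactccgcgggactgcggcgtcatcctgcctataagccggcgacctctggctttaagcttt
Ctsf: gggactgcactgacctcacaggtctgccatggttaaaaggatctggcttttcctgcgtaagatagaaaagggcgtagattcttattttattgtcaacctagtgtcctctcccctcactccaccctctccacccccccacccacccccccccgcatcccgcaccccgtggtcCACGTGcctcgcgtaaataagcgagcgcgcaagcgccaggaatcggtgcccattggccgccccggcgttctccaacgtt

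GAGGAAG or its reverse complement was found in 3 of the 7 windows, those of Ctsk, Ctss and Ctsc, against 13.6% of all windows. The stretches of 30 bases around these matches are given in gene orientation with the motif in capitals (CTTCCTC where it lies on the opposite strand), for Ctss at chr3:95526774-95526803, for Ctsc at chr7:88277877-88277906 and chr7:88277924-88277953, and for Ctsk at chr3:95498966-95498995 and chr3:95499140-95499169, all on the plus strand. The match of Ctss covers the transcript start. No window held both motifs, and none of the 7 held the AP-1 motif TGANTCA on either strand, which 7.81% of all windows hold. The window of Ctsz held none of the 3 motifs. A match is only a description of the letters, and binding was not measured.
Ctss: atgaaagttcaCTTCCTCattgtggatgct
Ctsc distal: ccactttccttCTTCCTCctagtggtgcct
Ctsc proximal: tcactaactaaCTTCCTCaggccacctcgt
Ctsk distal: tcagacattttGAGGAAGaatggagacaac
Ctsk proximal: aaatgtgtgtcCTTCCTCcctaacccctcc

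Values are intensities, 1 per probe set, scaled by array. Values below the 50th percentile of an array (26.3 for the control and 24.3 for the TDAG8 array) were treated as too dim to order. Ratios are TDAG8 over vector control on the log2 scale, centred on the median of all genes, so a fold can differ slightly from the quotient of the printed intensities, and the brightest probe set stood for a gene that had more than 1. A gene was counted as higher or lower at 2-fold. Summed intensities of a list are uncentred and cover all its genes on the array, also those below the floor. Of 11949 genes measured above the floor on at least 1 array, 5.41% were counted as higher and 1.19% as lower. Of the 10 cathepsins, 0 were counted as higher and 1, Ctsf, as lower. Gpr65, the overexpressed gene, went from 32.3 to 73.9, and the arrays cannot tell its transcripts in injected cells from those in host cells. The lung markers Sftpc, Ager and Scgb1a1 were bright on both arrays. Whole-lung RNA cannot tell fewer or more cells of a type apart from less or more RNA per cell.

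All 7 phagocyte cathepsins were higher in the TDAG8 pool, by less than 2-fold, with log2 ratios from 0.14 to 0.99 and a median of 0.52, or 1.43-fold. This agreement depends in part on the grouping, which was set with earlier results of these data known. The 2 members below 0, Ctsh and Ctsf, were placed outside this group, though macrophages also make Ctsh. Over all genes measured, 49.9% had a ratio above 0 and the median was 0.00, values that the centring largely sets. The epithelial pair split, Ctse at 0.35 and Ctsh at -0.26, so that their median was 0.04. Ctse was dim, at 76.7 and 93.7, and read by a probe set that can share sequence with other transcripts. Without such probe sets Ctse was not measured and the median of the epithelial group was -0.26. The difference between the medians of the groups was 0.48, from 7 genes and 2, without a test. Ctse lay within the range of the phagocyte members, so only Ctsh separated the epithelial group from the other. Over all 10 genes the median was 0.40, with 8 above 0 and 2 below.

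**Figure D1:**
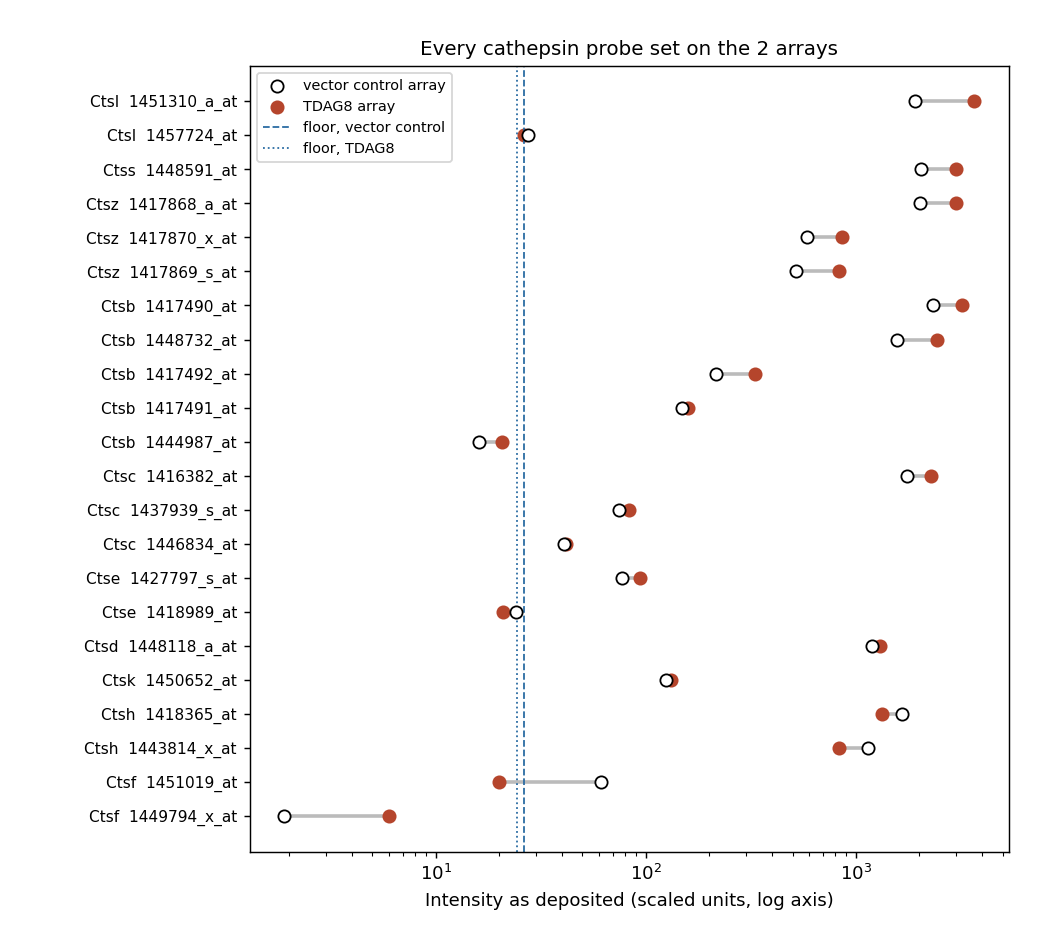
Intensity of every cathepsin probe set (rows, ordered by the ratio of the gene) on the vector control array (open points) and the TDAG8 array (filled points), on a log axis in scaled units, with the floor of each array as a vertical line. The bright probe sets of Ctsl, Ctss, Ctsz, Ctsb and Ctsc lie further right in the TDAG8 array, those of Ctsh and the brighter one of Ctsf further left.

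Ctsl, a lysosomal endopeptidase that also cuts the invariant chain and collagen, had the highest ratio of the 10. Its bright probe set went from 1921 in the vector control to 3663 in the TDAG8 pool, 1.99-fold, just under the limit for a call. Of all genes measured, 5.58% had a higher ratio, and of the 688 genes with a mean intensity of at least 1000, 2.47% did. A second Ctsl probe set, at 27.6 and 26.3, lay just above the floors and had a log2 ratio of -0.01. The high ratio of Ctsl thus rests on 1 bright probe set, and the mean over both was 0.49.

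Ctss and Ctsz came next and were nearly equal in ratio. Ctss encodes the endopeptidase that removes the last part of the invariant chain in antigen-presenting cells and, unlike most cathepsins, stays active at neutral pH. It went from 2041 to 3007, a log2 ratio of 0.62, read by 1 probe set. Ctsz encodes a carboxypeptidase of myeloid cells that binds integrins. It went from 2026 to 2984 in its brightest probe set, also 0.62. The other Ctsz probe sets went from 588 to 856 and from 517 to 835, so the log2 ratios of the 3 ran from 0.60 to 0.75. No other member read by several probe sets had all of them so close together on the higher side. Some of the Ctsz probe sets can share sequence with each other or with other transcripts, and all 3 read the same RNA.

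Ctsb encodes a protease with both endopeptidase and exopeptidase activity that is secreted in many tumours. Its brightest probe set went from 2318 to 3189, a log2 ratio of 0.52. A second bright one went from 1571 to 2436, a ratio of 0.69, and another from 217 to 330, a ratio of 0.67. The fourth, at 148 and 159, was at 0.16, and the last was too dim on both arrays to give a ratio. All 4 measurable probe sets were above 0, with a range of 0.53 between them. Across the 4775 genes with more than 1 probe set above both floors, the median range was 0.29 and the 90th percentile 0.75. These genes differ in their number of probe sets, and a range grows with that number.

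Ctsc, or dipeptidyl peptidase 1, removes dipeptides from the granule proteases of neutrophils, mast cells and cytotoxic cells and so activates them. Its bright probe set went from 1744 to 2291, a log2 ratio of 0.45. The dimmer ones, at 74.7 and 83.0 and at 40.8 and 41.6, gave 0.21 and 0.09. All 3 were above 0, and the brighter the probe set the higher its ratio. The list of granule proteases and relatives was dim, with 4 of 9 members above the floor, 2 of them on 1 array only. Of the 4, 2 were above 0 and 2 below. In that list Prtn3, proteinase 3 of neutrophils, was at least 1.75-fold higher, from 16.9 to 44.1, and Gzma, granzyme A, went from 331 to 227. Cma1 was at least 1.16-fold lower, from 29.4 to 15.2. Elane, Mcpt4, Mcpt8, Tpsb2 and Tpsab1 were below the floor on both arrays.

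Ctsd and Ctsk had the lowest ratios of the phagocyte group. Ctsd, the main aspartic protease of lysosomes, went from 1192 to 1304, a log2 ratio of 0.19. Of all genes measured 35.1% had a higher ratio. Ctsk, the collagen-degrading protease of osteoclasts that fibroblasts and some macrophages also make, went from 124 to 131, a ratio of 0.14. Each was read by 1 probe set, and both ratios lay near the middle of those of all genes. Of 6 osteoclast markers only Acp5 and Atp6v0d2 were above the floor, at 0.41 and -0.58.

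**Figure D2:**
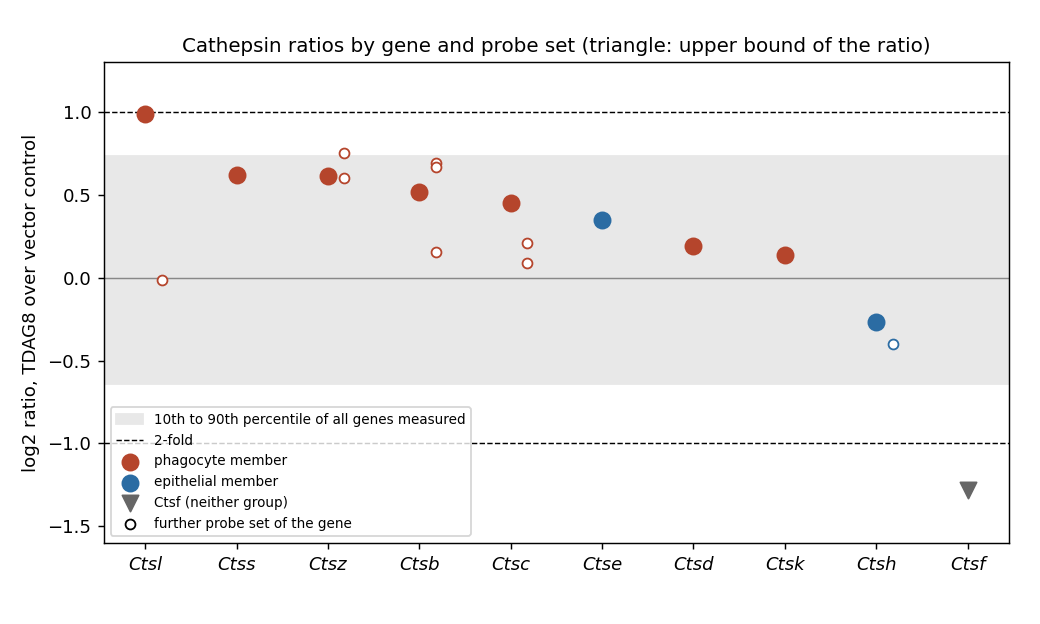
Log2 ratio of TDAG8 over vector control for each cathepsin (large points: brightest probe set; small open points: further probe sets above the floor), with the 10th to 90th percentile of all 11949 genes measured in grey and 2-fold as dashed lines. Ctsl at 0.99 and Ctsf, whose triangle is a bound, lie outside the grey band from -0.64 to 0.73.

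Ctsh was lower with both of its probe sets. It encodes an aminopeptidase that type 2 cells use to process surfactant proteins, and it is also made by macrophages. Its brighter probe set went from 1660 to 1327, a log2 ratio of -0.26, and the other from 1141 to 831, a ratio of -0.40. Both fell short of 2-fold, and 29.4% of all genes had a lower ratio than the first. All 6 genes in the list of surfactant genes and partners lay on the same side of 0, with a median of -0.40 and none counted as lower. Among them Pepd, which is not a surfactant gene, was close to 0 at -0.03. The substrate gene Sftpb went from 5825 to 3908, a log2 ratio of -0.52, and Napsa, an aspartic protease that acts on the same precursor, from 2181 to 1397, a ratio of -0.58. Sftpd was at -0.40 and Sftpc, the other substrate, at -0.12. All 11 measured type 2 markers, 5 of which are also in the surfactant list, were below 0, with a median of -0.48 and summed intensities of 40214 for the control and 29678 for the TDAG8 pool. Other resident cells of the lung had lower markers too, all 8 of type 1 cells with a median of -0.58, all 8 of ciliated cells with -0.78 and all 8 of endothelial cells with -0.79. Their summed intensities were 17389 and 11537, 2249 and 1298, and 7913 and 4492. The part of the content of any of these cells in the ratio of Ctsh was not tested.

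Ctse encodes an aspartic protease of endosomes found in stomach and other mucosal epithelia and in some immune cells. A probe set that can share sequence with other transcripts read it at 76.7 and 93.7, a log2 ratio of 0.35. The other Ctse probe set lay below the floor on both arrays at 24.1 and 20.9, where no ratio can be given. All 8 club cell markers were below 0, with a median of -0.57 and summed intensities of 43108 and 31532. Ctse thus lay on the other side of 0 from the club cell markers and from Ctsh, at a low intensity.

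Ctsf encodes a papain-type protease with an unusually long precursor part. It went from 61.4 in the vector control to 20.1 in the TDAG8 pool, below the floor there, and was at least 2.43-fold lower. This is the 1 cathepsin past 2-fold. The second Ctsf probe set, at 1.90 and 6.00, lay below the floor on both arrays and gives no direction. The control value is itself dim: with the floor at the 65th percentile (62.0 in the vector control) Ctsf was below it on both arrays, and with an offset in place of the floor the ratio was -0.91.

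The count of members with agreeing probe sets can be set beside that of all genes. Of the 5 cathepsins with several probe sets above both floors, 4 had ratios of 1 sign throughout, Ctsl being the exception, and 68.0% of the 4775 genes of that kind did. The ranges ran from 0.13 for Ctsh to 1.0 for Ctsl.

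The other cathepsins and related genes were mostly below the floor or little different. Of 14 listed genes 9 lay below it on both arrays, namely Ctsg, a serine protease of neutrophil granules, and the rodent placental cathepsins Ctsj, Ctsm, Ctsq, Ctsr, Cts3, Cts6, Cts7 and Cts8. None of the 5 measured was counted as higher or lower, and their median was -0.29. Ctsa, the protective serine carboxypeptidase of lysosomes, went from 498 to 587, a log2 ratio of 0.30. Ctsw, of cytotoxic lymphocytes, was at 0.42 from 71.2 and 91.3. The non-catalytic relatives Tinag and Tinagl1 were at -0.50 and -0.45.

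Cathepsin inhibitors went both ways, 3 above 0 and 3 below, with a median of 0.07 over 6 measured genes of 14 listed. Cstb, the inhibitor of cysteine cathepsins inside cells, went from 1799 to 2567, a log2 ratio of 0.57, close to that of Ctsb. Cst3, the main secreted inhibitor, went from 4000.3 to 3407, a ratio of -0.17. Ctla2a, which resembles the propeptide of cysteine cathepsins and inhibits them, went from 1307 to 787, a ratio of -0.67. Cst7, an inhibitor of immune cells, was at least 1.28-fold higher. None of the 6 reached 2-fold. With the floor at the 65th percentile this median was -0.19.

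Genes that sort and mature the cathepsins were near the median of all genes. All 10 were measured, 7 above 0 and 3 below, with a median of 0.14 and none at 2-fold. Lgmn, the legumain that cuts precursors of Ctsb, Ctsh and Ctsl into 2 chains, went from 458 to 785, a log2 ratio of 0.84. Sort1, a receptor that sends Ctsd and Ctsh to lysosomes, went from 827 to 445, a ratio of -0.83. Scarb2, a lysosomal membrane carrier, was at -0.56. Psap, the prosaposin precursor, was at 0.17. The largest differences in this list were therefore of opposite sign and nearly equal size.

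The rest of the lysosome had lower median ratios than the phagocyte cathepsins, a group that leaves out the 2 cathepsins below 0. Over all 10 cathepsins the median was 0.40. Of 25 measured genes in the list of lysosomal enzymes, which also holds the sorting gene Gnptab, 17 were above 0 and 8 below. Their median was 0.20, and 1, Gla, was counted as higher, from 48.1 to 93.3, past 2-fold only after centring. Arsb was at -0.95, Smpd1 at -0.70 and Ids, the brightest, at -0.65. Of 14 membrane and lipid-carrying proteins 9 were below 0, with a median of -0.12. Of the 14, 2 were counted as higher, both of macrophages, Slc11a1 from 86.9 to 218 and Cd68 from 215 to 499.5. Npc2 was at -0.28 and Slc17a5 at -0.43. The MiT/TFE factors Tfeb, Tfe3, Mitf and Tfec were listed with Flcn, which is not one of that family. Their log2 ratios ran from -0.18 for Flcn to 0.39 for Tfec, with Mitf at 0.17.

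**Figure D3:**
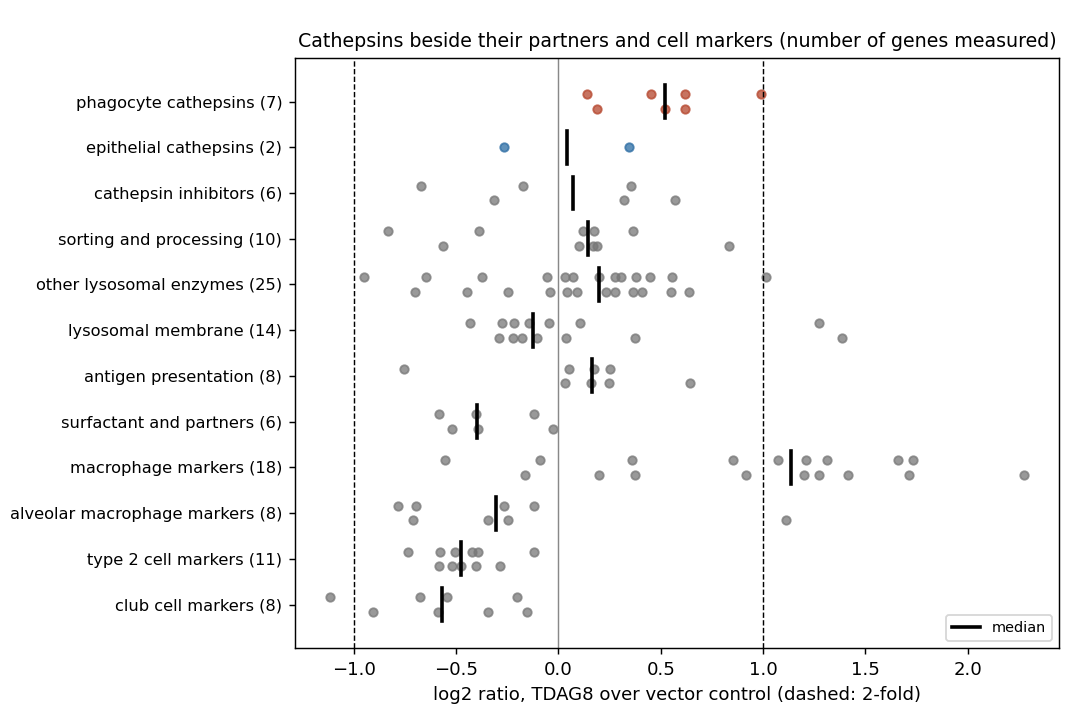
Log2 ratio of TDAG8 over vector control for each measured gene (points) of the cathepsin groups, of partner lists and of cell marker lists, with the median as a black bar and 2-fold as dashed lines. The phagocyte cathepsins, with a median of 0.52, lie between the lysosomal enzymes at 0.20 and the macrophage markers at 1.14. That group leaves out Ctsh and Ctsf, the cathepsins below 0.

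Partners in antigen presentation were almost level, although Ctss and Ctsl act on the invariant chain. Of 8 measured genes 7 were above 0, with a median of 0.17, and none reached 2-fold. Cd74, the invariant chain itself, went from 4312 to 4229, a log2 ratio of 0.03, beside 0.62 for Ctss. Ifi30, a thiol reductase of the same compartment, was at 0.25. Ciita, the class II regulator, was at 0.64 from 32.3 and 48.4, and H2-DMb2 at -0.75.

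Among extracellular proteases, inhibitors and substrates 8 of 13 measured genes were above 0, with a median of 0.12, and 3 were counted as higher. Timp1, an inhibitor of metalloproteinases, went from 103 to 396, 4.01-fold. Mmp14, a membrane metalloproteinase, went from 317 to 692, 2.27-fold, and Mmp13, a collagenase, was at least 2.17-fold higher. Anxa2, a surface protein and the brightest gene of this list, was at 0.32. None of the phagocyte cathepsins reached the ratios of these 3.

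Markers of macrophages were higher beside the phagocyte cathepsins, with larger ratios. All 18 listed markers were measured, 15 above 0, and 10 were counted as higher, with a median of 1.14, or 2.20-fold. Their intensities, without centring, summed to 11143 for the control and 13706 for the TDAG8 pool. Lyz2, the brightest marker at 6650 and 6002, weighed most in these sums. Msr1 was at least 4.85-fold higher, from 25.4 to 122, Itgam went from 32.5 to 104, and Fcgr1 from 84.1 to 265. C1qa, C1qb and C1qc, complement genes of tissue macrophages, were at 1.20, 1.66 and 1.41. The 3 markers below 0 were Mertk, a receptor for the uptake of dead cells, at -0.56, from 322 to 210.5, Mrc1 at -0.16 and Lyz2 at -0.09, and Csf1r was at 0.20. Msr1 and Trem2 were below the floor in the vector control, and none was below it on both arrays. All 7 phagocyte cathepsins had ratios under the median of these markers, except that with the floor at the 65th percentile the markers' median was 0.96 and Ctsl was at 0.97. The part of macrophage content in the cathepsin ratios was not tested.

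Markers of resident alveolar macrophages, which also make cathepsins, lay on the other side. Of 8 measured, 7 were below 0, with a median of -0.31 and summed intensities of 7936 and 5577. Chil3 was at -0.71, Car4, which capillaries also express, at -0.78, and Marco was the exception at 1.11. Dendritic cell markers had 5 of 5 measured below 0, with a median of -0.29, and Flt3 and Xcr1 were below both floors. With Flt3 and Xcr1 included, the summed intensities were 400.5 and 302.5. Neutrophil markers had 4 of 5 measured above 0, with a median of 0.28, and Cxcr2, Camp and Ngp below both floors. With Cxcr2, Camp and Ngp included, the summed intensities were 1457 and 1454. Csf3r was at 0.63 and Ltf at -0.56. Fibroblast markers had 3 of 8 above 0, with a median of -0.32 and summed intensities of 10818 and 10598, and Lum was 2.20-fold higher. Proliferation markers, which tumour cells share with any dividing cell, had 7 of 7 above 0, a median of 2.24, and summed intensities of 1865 and 5216. T and natural killer cell markers had 4 of 5 above 0, with a median of 0.11, and B cell markers 3 of 3 below, with a median of -0.39. Of 6 mast cell and basophil markers only Kit was above the floor, at -0.95. The part of these cells in the cathepsin ratios was not tested either.

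Under the 8 alternatives that change normalization, floor or probe sets, all 10 cathepsins kept the sign of their ratio wherever they were measured. The median of the phagocyte group ran from 0.46 to 0.54. That of the epithelial group ran from -0.26 to 0.06, so no direction can be given to it.

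**Figure D4:**
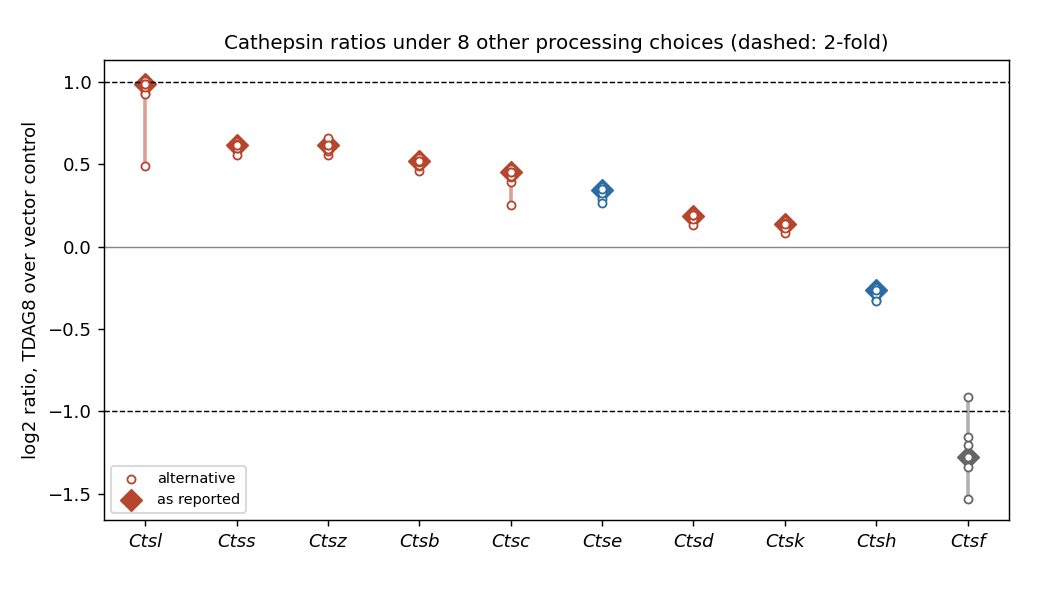
Log2 ratio of each cathepsin as reported (diamonds) and under the 8 alternatives (open points), joined by a bar, with 2-fold as dashed lines. The bars of Ctss, Ctsz, Ctsb, Ctsd, Ctsk and Ctsh are short, whereas Ctsl reaches down to 0.49 and Ctsf runs from -1.53 to -0.91.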

How the data were processed

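The deposited values are intensities on a linear scale, 1 per probe set and array; from the deposited columns, each has a trimmed mean of 100 with 2% of probe sets left out at each end. Per the labels' protocols, 2 µg of pooled total RNA was labelled from the poly(A) tail. The image software was not stated there, and no detection calls were used. Both columns matched a sample, and 0 were left over. Of 45101 probe sets 64 controls were set aside. Of the rest 34945 had 1 gene symbol in the platform annotation, 932 several and 9160 none, and 34741 were matched by gene identifier to RefSeq (GRCm38.p6) symbols. Probe sets with 1 symbol were used. The brightest stood for its gene, values were raised to the floor at the 50th percentile, and log2 ratios were centred by a shift of -0.06, the median of 11044 genes above both floors. A ratio against a value at the floor is a bound, written "at least". With 1 array per group there is no test, p-value or standard error, and their number limits the precision. The procedure was tested on simulated data in which only genes well above the floor were given a known change. Recovery of changes near the floor was therefore not tested. The members and lists were chosen with earlier results of these data known. The rule named all members and the brightest gene and 3 largest differences of each list. Of cell marker lists only some of these, or counts alone, are printed. Also named are, chosen after their values were seen, exceptions, counts of 5 or fewer, Tfeb, Tfe3, Pepd and the C1q and Csf1r markers. Tools were Python 3.11.15, numpy, pandas and statsmodels.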

Additional observations from a re-analysis of the deposited data

How the results depend on the processing

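Of 112 recomputed values 102 kept their sign, their side of 2-fold and a distance of less than 0.25 on the log2 scale from the reported value, or, for counts, stayed within 1.5 times. The log2 ratio of Ctsl was 1.01 when the floor was the 30th percentile, past 2-fold, so that the count of higher cathepsins became 1, and 0.49 with the mean over all probe sets. The ratio of Ctsf was -1.53 under the same lower floor and -0.91 with an offset in place of the floor. The count of lower cathepsins was 0 with that offset and 0 under the higher floor (65th percentile), where Ctsf was not measured. The median of the epithelial pair was -0.017 without centring, -0.26 without probe sets that can share sequence, where Ctse was not measured, and -0.26 with Ctsf counted in. Beyond what is stated here, why these values moved was not tested. Leaving out a replicate is impossible with 1 array per group. No paired analysis was possible because each group has 1 array. Across settings, genes past 2-fold numbered 419 to 876 higher and 31 to 345 lower, and the share of higher ones among them ran from 71.7% to 93.3% (82.0% as reported). Intensity near the floor limits what can be said of Ctse and Ctsf and of the second probe set of Ctsl.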
